A study of Homo sapiens with 14 samples.

Results

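The genes described here are 9 claudin and tight junction genes, CLDN1, CLDN3, CLDN4, CLDN7, CLDN11, CLDN12, OCLN, TJP1, and F11R, looked up by name among the 19410 genes of the deposited table. Their RNA was read in parental MDA-MB-231 cells and in lines edited at SAP30, at SIN3A and SIN3B, or at MLL1. CLDN3 and CLDN11 were near the limit of detection in every library, so that 7 of the 9 genes were among the 13540 tested. The question was which of these genes differed in the edited lines from the parental cells, and from what absolute level, since MDA-MB-231 is counted among the claudin-low breast cancer lines. The list was made with earlier results of these data known. The paper had already reported CLDN1 as lower after loss of SAP30, of SIN3A and SIN3B, and of MLL1.

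Tight junctions seal the space between neighboring epithelial cells. Claudins are membrane proteins whose strands form the seal and set which ions and solutes pass. Occludin (OCLN) and JAM-A (F11R) sit in the same membrane domain, and ZO-1 (TJP1) ties most of these proteins to the actin cytoskeleton. Claudin-low breast cancers are a class with little RNA of CLDN3, CLDN4, CLDN7, and E-cadherin and much RNA of mesenchymal genes such as VIM. SAP30 is a subunit of the SIN3 corepressor complex, for which SIN3A and SIN3B are alternative scaffolds, and MLL1 is a histone H3 lysine 4 methyltransferase.

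RNA-Seq covered 14 libraries in 7 conditions, 2 libraries each. These were parental MDA-MB-231, an established triple-negative breast cancer line, and 6 CRISPR/Cas9-edited lines made from it: SAP30-KO1 and SAP30-KO2, with SAP30 knocked out by independent sgRNAs; SIN3A+SIN3B-DKO1 and SIN3A+SIN3B-DKO2, with both SIN3 scaffolds targeted; and MLL1-KO1 and MLL1-KO2. No treatment was named for the sequenced cultures, and all grew in the same serum-containing medium. The edited lines had been given an sgRNA vector and selected with puromycin, and no scrambled control was among the libraries. In comparisons with parental, loss of the targeted gene and the making of the lines cannot be told apart. Each edited line was a mixture of several knockout clones rather than 1 clone. All 6 lines were compared with the same 2 parental libraries, so the comparisons with parental share their controls. The labels do not say whether the 2 libraries of a condition came from separate cultures, and p-values therefore measure the spread between these libraries, which may be technical.

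Libraries held from 18415036 to 23162682 reads, with a median of 21648530. Replicate libraries differed by more than sampling noise, most of all those of SIN3A+SIN3B-DKO2 (chi-square of 8.0 for each degree of freedom) and least those of SIN3A+SIN3B-DKO1 (1.47). Values are TPM, the share of a gene among the transcripts of its library after correction for gene length. SAP30 RNA was 78.9 and 82.8 TPM in parental and 2.75 to 4.96 in the 4 SAP30-KO libraries. The 4 libraries labelled SIN3A+SIN3B-DKO held 43.5 to 50.2 TPM of SIN3B, against 75.1 and 77.4 for parental, whereas SIN3A was not lower there, at 55.1 to 62.5 TPM against 43.1 and 45.4. MLL1 RNA, listed as MLL, was 49.0 and 56.7 TPM in parental, 15.8 to 27.7 in the 4 MLL1-KO libraries, and 23.0 to 35.4 in the 4 SAP30-KO libraries. RNA does not show whether an edited gene still makes protein.

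In every edited line at least 1 of the 7 tested genes was called lower than in parental, and none was called higher. CLDN1 was lower in all 6 lines, CLDN4 in SIN3A+SIN3B-DKO2 and both MLL1-KO lines, and CLDN7 in both MLL1-KO lines. OCLN was lower in both SAP30-KO and both MLL1-KO lines, and F11R in both SAP30-KO lines and MLL1-KO1. CLDN12 and TJP1 passed in no line. A gene was called when limma gave a Benjamini-Hochberg adjusted p under 0.05 over all genes tested and a change of at least 1.5-fold on the log2(TPM + 0.5) scale, which understates the change of low genes. In SAP30-KO1, 3 of the 7 genes were called lower, where 7.86% of all genes tested were called lower. In SAP30-KO2 it was 3 of 7 with 8.12% of all genes, in SIN3A+SIN3B-DKO1 1 of 7 with 8.66%, and in SIN3A+SIN3B-DKO2 2 of 7 with 7.56%. In MLL1-KO1 it was 5 of 7 with 16.3% of all genes, and in MLL1-KO2 4 of 7 with 14.9%. CLDN1, already known to be lower, is in each of these counts, and the shares are given for scale without a test. Genes called higher were 0 of the 7 in each line, where they made up 7.8%, 7.44%, 7.76%, 6.0%, 6.89%, and 10.2% of all genes in the lines in the same order. The median log2 difference of the 7 genes was -0.43 and -0.57 in the SAP30-KO lines, -0.05 and -0.18 in SIN3A+SIN3B-DKO1 and SIN3A+SIN3B-DKO2, and -1.17 and -2.33 in MLL1-KO1 and MLL1-KO2. The median over all genes tested lay between -0.09 and 0.03 in these lines. In bulk RNA, fewer cells that make a transcript and less of it per cell cannot be told apart.

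**Figure D1:**
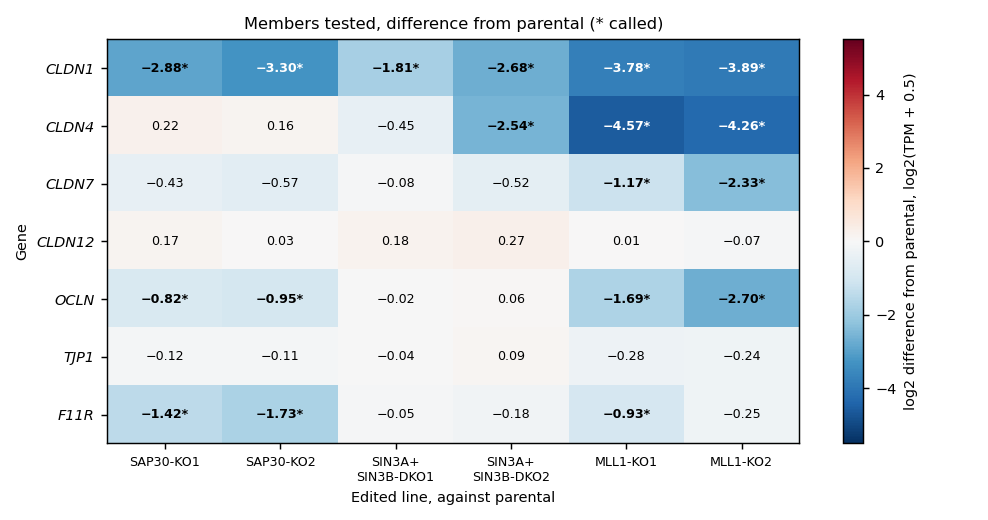
Log2 difference from parental on the log2(TPM + 0.5) scale for the 7 tested genes (vertical) in the 6 edited lines (horizontal), with blue for lower and red for higher, and an asterisk for a called difference. CLDN1 carries an asterisk in every line, with its largest value of -3.89 in MLL1-KO2, whereas CLDN12 and TJP1 carry none.

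Set against the other genes of the same libraries, these genes were not uniformly low in the parental cells. TJP1 was the highest, at a mean of 77.7 TPM, above 82.1% of the 16449 genes with any reads in parental. CLDN4 followed with 41.9 TPM, CLDN12 with 38.5, and CLDN7 with 30.7, all above the median of 25.5 TPM over the genes tested. F11R, at 22.2 TPM, CLDN1, at 10.6, and OCLN, at 8.07, were below that median. CLDN3 was at 0.83 TPM and CLDN11 at 0.0736. No neighbors in this order had overlapping libraries, and the closest by ratio were CLDN4, with 42.5 and 41.4 TPM, and CLDN12, with 39.9 and 37.2.

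Of the markers that define a claudin-low line, VIM was at 5830 and 5740 TPM in parental, CD44 at 284 and 286, and ZEB1, a repressor of epithelial genes, at 63.2 and 62.7. Of the markers that should be low, CDH1, which encodes E-cadherin, was at 1.07 and 1.25 TPM and ESR1, the estrogen receptor, at 0.0399 and 0.041. EPCAM, an epithelial adhesion molecule, was at 19.2 and 19.1 TPM. Of the claudins in that definition, CLDN3 was thus close to 0 and CLDN4 and CLDN7 were not. The definition compares tumors or lines, and no other line was measured here, so these levels do not place MDA-MB-231 within it.

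RefSeq has start sites for 8 of the 9 genes on GRCh38.p14. Over the 300 bases from 250 before to 50 after a start, the count of CpG, which sets apart CpG island promoters from CpG-poor ones, ranged widely among the claudins. CLDN1 held 31, more than 79.3% of the 35116 windows of all genes. CLDN3 held 24, more than 66.1% of windows. CLDN4 held 5, more than 29.6%, and CLDN12 held 15, close to the median of 14. The 250 bases before the start are shown 5′ to 3′ for 3 claudins, CLDN1 as the gene that was lower in every line, CLDN4 as the gene with the largest log2(TPM + 0.5) difference, and CLDN12 as the claudin that passed in none. Capitals mark CpG. The CLDN1 stretch is at chr3:190322447-190322696 on the minus strand, the CLDN4 stretch at chr7:73830746-73830995 on the plus strand, and the CLDN12 stretch at chr7:90403211-90403460 on the plus strand, and they hold 28, 4, and 12 CpG.
CLDN1: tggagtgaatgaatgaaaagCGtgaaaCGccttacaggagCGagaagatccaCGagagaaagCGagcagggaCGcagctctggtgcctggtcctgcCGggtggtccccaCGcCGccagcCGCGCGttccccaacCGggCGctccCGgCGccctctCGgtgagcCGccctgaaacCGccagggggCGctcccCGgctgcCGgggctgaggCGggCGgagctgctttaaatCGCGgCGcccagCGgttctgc
CLDN4: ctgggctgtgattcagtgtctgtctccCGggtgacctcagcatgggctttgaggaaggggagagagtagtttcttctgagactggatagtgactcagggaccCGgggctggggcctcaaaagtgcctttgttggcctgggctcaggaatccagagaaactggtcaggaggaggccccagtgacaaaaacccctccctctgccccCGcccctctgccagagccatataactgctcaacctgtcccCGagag
CLDN12: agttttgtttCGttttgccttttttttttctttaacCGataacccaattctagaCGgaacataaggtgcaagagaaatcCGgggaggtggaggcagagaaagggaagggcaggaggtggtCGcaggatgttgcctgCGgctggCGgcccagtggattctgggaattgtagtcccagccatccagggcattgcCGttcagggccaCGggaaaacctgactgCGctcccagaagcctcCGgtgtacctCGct
The letters CACCTG, the E-box form that SNAI and ZEB repressors are known to bind, were searched on both strands and occur in 20.6% of all windows. None of the windows of CLDN1, CLDN4, and CLDN12 holds them, CLDN3 holds 1 copy, and the second of the 2 start sites of CLDN7 holds 5. The windows of the 2 OCLN start sites hold 1 and 2 copies, and the first of the 4 TJP1 start sites holds 1. GGGCGG, a GC box, occurs in 45.0% of all windows, with 6 copies in CLDN3, 2 in CLDN1, 1 in CLDN4, and 0 in CLDN12. At least 1 start site of CLDN7, CLDN11, OCLN, and TJP1 holds it too, with at most 3 copies. TATAAA occurs in 11.5% of all windows and in none of these 8 genes. These matches are descriptions of the sequence, and no binding was measured.

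**Figure D2:**
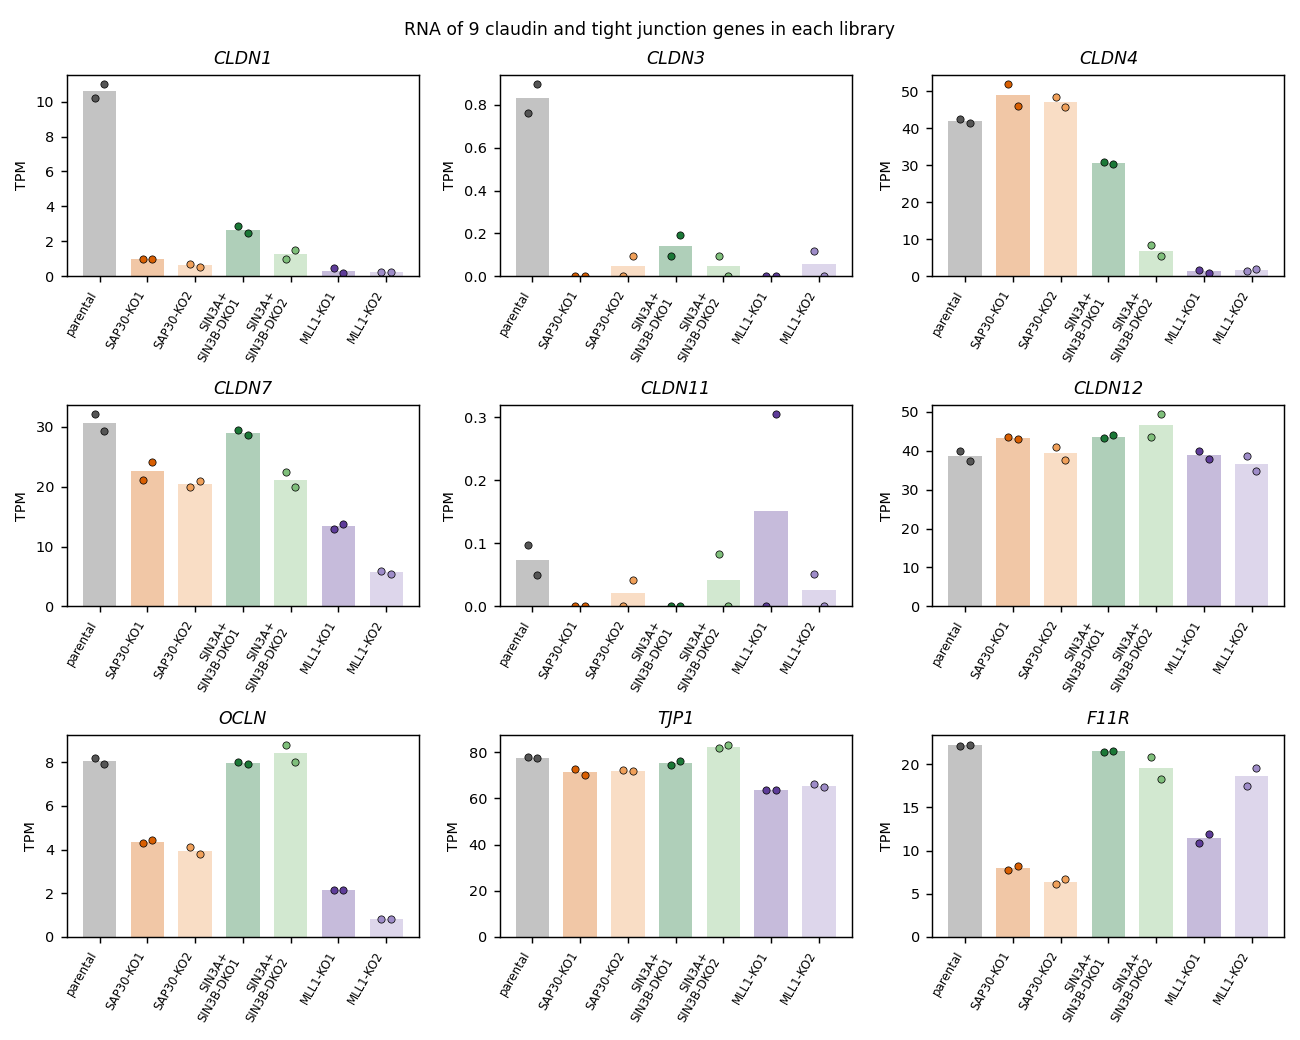
TPM of each of the 9 genes (vertical, a scale of its own for each gene, starting at 0) in the 7 conditions (horizontal). Bars are means of 2 libraries and points are the libraries. CLDN1 drops from 10.6 TPM in parental to at most 2.86 in any edited library, while CLDN12 stays between 34.7 and 49.3 TPM in all 14.

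CLDN1 (chromosome 3, 190023496 to 190040235 on GRCh37, minus strand), a sealing claudin needed for the skin barrier, was the gene called in every line. It was at 10.2 and 11 TPM in the parental libraries. It was at 1.01 in both libraries of SAP30-KO1 and at 0.728 and 0.53 in SAP30-KO2. It was at 2.86 and 2.47 in SIN3A+SIN3B-DKO1 and at 0.998 and 1.51 in SIN3A+SIN3B-DKO2. No edited library reached the parental range, and the libraries labelled SIN3A+SIN3B-DKO1 held the most CLDN1 RNA of the edited lines. In the MLL1-KO lines 5 to 13 reads of CLDN1 were left, or 0.462 and 0.18 TPM in MLL1-KO1 and 0.257 and 0.242 TPM in MLL1-KO2. The mean was 10.5-fold and 16.9-fold below parental in SAP30-KO1 and SAP30-KO2, 3.98-fold and 8.46-fold below it in the double knockout lines, and 33.1-fold and 42.6-fold below it in MLL1-KO1 and MLL1-KO2. On the log2(TPM + 0.5) scale the differences ran from -1.81 in SIN3A+SIN3B-DKO1 to -3.89 in MLL1-KO2 (SE 0.20 each, largest adjusted p = 2.2e-05 from limma). With a pseudocount of 0.1 in place of 0.5 the difference in MLL1-KO2 was -4.94.

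CLDN4 (chromosome 7, 73213872 to 73247020, plus strand), a claudin that also serves as receptor of a clostridial enterotoxin, differed between the SAP30-KO and MLL1-KO lines. It also differed between SIN3A+SIN3B-DKO1 and SIN3A+SIN3B-DKO2, which share a genotype. The parental libraries held 42.5 and 41.4 TPM. SAP30-KO1 held 51.9 and 46.1 TPM and SAP30-KO2 48.5 and 45.6, all above the parental libraries but without a call, with log2 differences of 0.22 (95% interval -0.23 to 0.67) and 0.16 (-0.28 to 0.61). SIN3A+SIN3B-DKO1 held 30.8 and 30.3 TPM, below parental, and did not pass either (log2 difference -0.45, SE 0.20, adjusted p = 0.082 from limma). SIN3A+SIN3B-DKO2 held 8.54 and 5.39 TPM, 6.02-fold below parental (log2 difference -2.54, SE 0.20, adjusted p = 2.7e-06 from limma). Over all genes the replicates of that line were the least alike of any condition, and the CLDN4 difference was -2.85 without its replicate 1 and -2.23 without its replicate 2. CLDN4 was nearly gone from the MLL1-KO libraries, with 1.68 and 0.956 TPM in MLL1-KO1 and 1.54 and 1.91 TPM in MLL1-KO2, from 14 to 25 reads each. The means were 31.8-fold and 24.3-fold below parental, and the log2 differences of -4.57 and -4.26 were the largest of the 7 genes on this scale (adjusted p = 1.1e-08 and 1.6e-08 from limma). That order depends on the pseudocount, since by mean TPM the fold of CLDN1 was larger in both lines, and with a pseudocount of 0.1 CLDN4 was at -4.94 and -4.53 and CLDN1 at -4.75 and -4.94.

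CLDN3 (chromosome 7, 73183327 to 73184600, minus strand), which shares the toxin-receptor role of CLDN4, gave 7 and 8 reads in the parental libraries, or 0.764 and 0.897 TPM. The gap between the spans of CLDN3 and CLDN4 in GENCODE 44 is 29.3 kb, and the promoter windows above use RefSeq starts instead. No edited library gave more than 2 reads. Both libraries of SAP30-KO1 and of MLL1-KO1 were at 0 reads, which is at least 2.63-fold and 2.85-fold lower than parental when 3 reads per library are taken as the floor. The summed reads per library size were 0.0572 of parental in SAP30-KO2 (95% exact counting interval 0.00136 to 0.372), 0.171 in SIN3A+SIN3B-DKO1 (0.0317 to 0.605), 0.0568 in SIN3A+SIN3B-DKO2 (0.00135 to 0.369), and 0.0678 in MLL1-KO2 (0.00161 to 0.441). These intervals and floors cover counting error only. CLDN3 was too low to be tested with the filter used, and in the fit without that filter it was called lower in all 6 lines, with fitted log2 differences from -1.05 to -1.41 that depend on the pseudocount.

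CLDN7 (chromosome 17, 7163222 to 7167302, minus strand), a claudin of the basolateral membrane that binds EPCAM, was at 32.1 and 29.3 TPM in parental. It was at 13.0 and 13.8 TPM in MLL1-KO1 and at 5.92 and 5.45 in MLL1-KO2, and these 4 libraries were the lowest of the 14. The mean was 2.3-fold below parental in MLL1-KO1 (log2 difference -1.17, SE 0.08, adjusted p = 5e-07 from limma) and 5.4-fold below it in MLL1-KO2 (-2.33, SE 0.08, adjusted p = 1.8e-09). SAP30-KO1, at 21.2 and 24.2 TPM, SAP30-KO2, at 20 and 21, and SIN3A+SIN3B-DKO2, at 22.5 and 19.9, lay below parental without overlap. Their log2 differences of -0.43, -0.57, and -0.52 passed the p threshold (adjusted p = 0.0015, 0.00021, and 0.00042 from limma) but not the minimum of 1.5-fold. SAP30-KO2 and SIN3A+SIN3B-DKO2 sat next to that minimum and were past it without parental replicate 2, at -0.64 and -0.59, without SAP30-KO2 replicate 2, at -0.60, and without SIN3A+SIN3B-DKO2 replicate 1, at -0.61. SIN3A+SIN3B-DKO1, at 29.4 and 28.6 TPM, overlapped the parental libraries. CLDN7 overlaps ELP5 on the opposite strand, and how strands were handled in counting is not given in the sources used here. ELP5 differed from parental by -0.21 to 0.28 on the log2 scale and was called in no line.

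Neither CLDN12 nor CLDN11 was called in any line. CLDN12 (chromosome 7, 90013035 to 90142716, plus strand), a widely expressed claudin that lacks the PDZ-binding tail of most others, was at 39.9 and 37.2 TPM in parental and at 34.7 to 49.3 in the 12 edited libraries. Its log2 differences ran from -0.07 in MLL1-KO2 (95% interval -0.23 to 0.08) to 0.27 in SIN3A+SIN3B-DKO2 (0.11 to 0.42, adjusted p = 0.0091 from limma), all short of 1.5-fold. CLDN11 (chromosome 3, 170136656 to 170172521, plus strand), a claudin of myelin and of Sertoli cells, gave 2 and 1 reads in the parental libraries. It gave 0 to 2 reads in 11 of the edited libraries and 7 in replicate 2 of MLL1-KO1, whose replicate 1 gave 0. No fold was computed, and CLDN11 was called in no line in the fit without the filter.

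The sum over the 19 claudins of the table was lowest in the lines where CLDN4 was called lower. CLDN4 is itself a large part of that sum, so its loss lowers the sum and raises the shares of the others. Parental libraries held 143 and 138 TPM of claudin RNA in all. SAP30-KO1 held 135 and 131, SAP30-KO2 129 and 120, and SIN3A+SIN3B-DKO1 123 and 122. SIN3A+SIN3B-DKO2, at 93.5 and 92.5, MLL1-KO1, at 67.0 and 65.1, and MLL1-KO2, at 56.6 and 52.7, lay below all other libraries. CLDN12 made up 27.5% of the claudin RNA in parental, 50% in SIN3A+SIN3B-DKO2, and 58.9% and 67.0% in MLL1-KO1 and MLL1-KO2. CLDN4 made up 29.9% in parental and 36.9% and 37.8% in the SAP30-KO lines, against 1.99% and 3.17% in the MLL1-KO lines. The 13 claudins outside the list of 9 genes added 17.2 and 17.9 TPM in parental and 10.2 to 12 TPM in the MLL1-KO libraries.

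**Figure D3:**
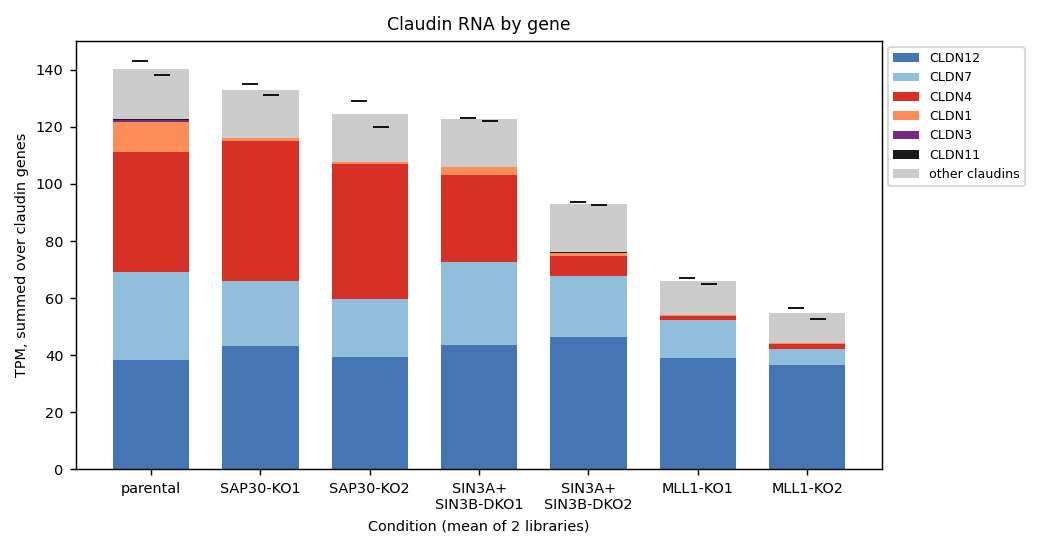
Summed TPM of 19 claudin genes (vertical, from 0) in the 7 conditions (horizontal), with mean TPM of each gene stacked by color and short lines for the totals of the 2 libraries. The CLDN12 segment keeps its height of 36.6 to 46.5 TPM while the CLDN4 segment shrinks from 41.9 TPM in parental to 1.32 and 1.72 in MLL1-KO1 and MLL1-KO2.

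OCLN (chromosome 5, 68788119 to 68853931, plus strand), which encodes the MARVEL-domain protein occludin, was at 8.21 and 7.92 TPM in parental. It was at 4.29 and 4.43 TPM in SAP30-KO1 and at 4.11 and 3.79 in SAP30-KO2, 1.85-fold and 2.04-fold below parental. The differences there were -0.82 and -0.95 on the log2 scale (SE 0.09, adjusted p = 2e-05 and 6.5e-06 from limma). The MLL1-KO lines were lower still, with 2.15 and 2.16 TPM in MLL1-KO1 and 0.831 and 0.804 TPM in MLL1-KO2. These were 3.75-fold and 9.87-fold below parental (log2 differences -1.69 and -2.70, adjusted p = 3.6e-08 and 7.9e-10 from limma). Both double knockout lines overlapped the parental libraries, with 8.0 and 7.92 TPM in SIN3A+SIN3B-DKO1 and 8.82 and 8.04 in SIN3A+SIN3B-DKO2. The 95% intervals of their log2 differences were -0.21 to 0.18 and -0.14 to 0.25. A pseudogene copy, OCLNP1, lies on the same chromosome at 70370052 to 70389020, and reads that fit both could have been split or lost in the counting.

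F11R (chromosome 1, 160965001 to 160991133, minus strand), the immunoglobulin-fold adhesion protein JAM-A, showed another order of the lines, with SAP30-KO the lowest. It was at 22.1 and 22.3 TPM in parental, 7.71 and 8.25 TPM in SAP30-KO1, and 6.07 and 6.65 TPM in SAP30-KO2. The SAP30-KO means were 2.78-fold and 3.49-fold below parental (log2 differences -1.42 and -1.73, SE 0.08, adjusted p = 2.6e-07 and 6.5e-08 from limma). MLL1-KO1, at 10.9 and 11.9 TPM, was 1.95-fold below parental (-0.93, adjusted p = 3.1e-06 from limma), and this call was lost under a 2-fold minimum. MLL1-KO2, at 17.5 and 19.6 TPM, lay between MLL1-KO1 and parental and was not called (-0.25, 95% interval -0.44 to -0.07). SIN3A+SIN3B-DKO1 held 21.4 and 21.5 TPM and SIN3A+SIN3B-DKO2 20.9 and 18.3, with log2 differences of -0.05 (-0.23 to 0.14) and -0.18 (-0.37 to 0.01).

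TJP1 (chromosome 15, 29991571 to 30261118, minus strand), which encodes the scaffold ZO-1, was the highest of the 9 genes. It was at 78.0 and 77.4 TPM in parental and at 63.7 to 83.4 in the 12 edited libraries. The lowest were MLL1-KO1, at 63.7 and 63.8 TPM, and MLL1-KO2, at 66.1 and 65.0. Its log2 differences there were -0.28 and -0.24 (SE 0.03, adjusted p = 2.2e-05 and 6.2e-05 from limma), past the p threshold and under 1.5-fold. In the SAP30-KO lines they were -0.12 and -0.11. The median of the 51 tested genes around each of these 7 genes on its chromosome differed from parental by -0.31 to 0.17 on the log2 scale in the 6 lines, and no call against parental was lost when that median was subtracted.

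Setting the genotypes against each other, with the 2 lines of a genotype averaged, gave calls on both sides. The p-values and intervals of these comparisons rest on the spread between libraries within a line. They leave out the spread between the 2 lines of a genotype. Between SAP30-KO and SIN3A+SIN3B-DKO, 4 of the 7 genes were called, where 7.47% of all genes were. CLDN4 was higher in SAP30-KO by 1.69 on the log2 scale (95% interval 1.37 to 2.0, adjusted p = 3.7e-06 from limma). F11R was lower in SAP30-KO by a log2 difference of -1.46 (-1.59 to -1.33), OCLN by one of -0.90 (-1.04 to -0.76), and CLDN1 by one of -0.85 (-1.16 to -0.53). The 2 lines of SIN3A+SIN3B-DKO were far apart for CLDN4, so the average of this genotype stands for neither.

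Between MLL1-KO and SAP30-KO, 5 of the 7 genes were called, where 19.8% of all genes were. CLDN4 was lower in MLL1-KO by a log2 difference of -4.61 (adjusted p = 3.7e-10 from limma), OCLN by one of -1.31 (1e-08), and CLDN7 by one of -1.25 (1.1e-08). F11R was higher in MLL1-KO by 0.98 (8.2e-08). Between MLL1-KO1 and MLL1-KO2 themselves, CLDN7, OCLN, and F11R differed by 1.16, 1.01, and -0.68, a spread that these p-values leave out. CLDN1 was lower in MLL1-KO by a log2 difference of -0.74 (0.00072), but both genotypes were near the floor and the call was lost with a pseudocount of 1 (-0.50) and with quantile normalization (-0.23, adjusted p = 0.2).

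Between MLL1-KO and SIN3A+SIN3B-DKO, 4 of the 7 genes were called, where 19.9% of all genes were, and all 4 were lower in MLL1-KO, where 13% of all genes were. Their log2 differences were -2.92 for CLDN4, -2.22 for OCLN, -1.59 for CLDN1, and -1.45 for CLDN7, with a largest adjusted p of 1.9e-06 from limma. Here too the spread between lines is left out. SIN3A+SIN3B-DKO1 and SIN3A+SIN3B-DKO2 differed by 2.09 for CLDN4 and 0.86 for CLDN1. F11R (-0.48), TJP1 (-0.29), and CLDN12 (-0.25) passed the p threshold but not 1.5-fold. MLL1-KO lines had more genes called lower than higher against parental, and this split depended on the scaling: 2210 lower and 933 higher in MLL1-KO1 became 1545 and 1451 with quantile normalization, and 2021 and 1387 in MLL1-KO2 became 1680 and 1788. The median of all genes in MLL1-KO1 moved from -0.09 to 0.04 with that scaling, while every one of the 9 member calls in the MLL1-KO lines against parental was kept.

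**Figure D4:**
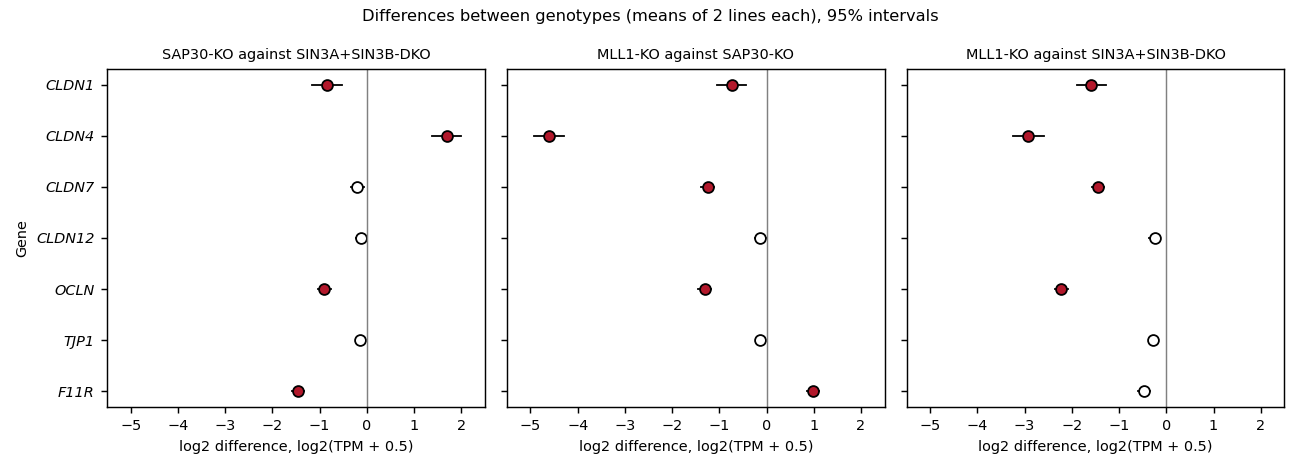
Log2 difference on the log2(TPM + 0.5) scale (horizontal) of the 7 tested genes (vertical) between pairs of genotypes, each the mean of 2 lines. Bars are 95% intervals from the spread between libraries within a line, and filled points are called differences. CLDN4 lies at 1.69, -4.61, and -2.92 in the 3 panels, and CLDN12 is open in all of them.

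The 2 lines of a genotype were also compared directly. SAP30-KO1 and SAP30-KO2 differed in 0 of the 7 genes, where 0.148% of all genes were called by limma. The count of called genes was 0 with voom on recovered reads as well. An unadjusted p from limma was under 0.05 for 1 of the 7 (F11R, log2 difference 0.31, adjusted p = 0.18) and for 1796 of the 13540 genes tested. SIN3A+SIN3B-DKO1 and SIN3A+SIN3B-DKO2 differed in CLDN4, by 2.09 (SE 0.20, adjusted p = 0.00015), and in CLDN1, by 0.86 (SE 0.20, adjusted p = 0.02), both higher in SIN3A+SIN3B-DKO1. That is 2 of 7 genes, where 2.23% of all genes were called. CLDN1 lost its call without replicate 1 of SIN3A+SIN3B-DKO1 (0.77, adjusted p = 0.12), without its replicate 2 (0.96, 0.072), and without replicate 1 of SIN3A+SIN3B-DKO2 (0.65, 0.061), all from limma, and with a pseudocount of 0.1 (1.05, 0.056). With only these 4 libraries in the fit, both calls were lost at unchanged differences, with adjusted p = 0.086 for CLDN4 and 0.17 for CLDN1 from limma. MLL1-KO1 and MLL1-KO2 differed in 3 of 7 genes, where 10.4% of all genes were called. CLDN7 was higher in MLL1-KO1 by 1.16 and OCLN by 1.01, whereas F11R was lower there by a log2 difference of -0.68 (adjusted p = 1.9e-06, 7.1e-06, and 9.2e-05 from limma). With quantile normalization F11R was at -0.56 and short of 1.5-fold. Without replicate 1 of MLL1-KO1, CLDN4 was also called, lower in MLL1-KO1 (-0.61, adjusted p = 0.045 from limma, against -0.31 with all libraries).

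Among other claudins, 13 of the 17 listed were in the table and 3 were tested. CLDN2, which forms a cation-selective pore, fell in all 6 lines from a mean of 2.44 TPM in parental, with log2 differences from -0.73 in MLL1-KO1 to -1.54 in SIN3A+SIN3B-DKO2. CLDN23 fell in both MLL1-KO lines, from 8.05 TPM to 1.13 and 0.829 TPM in MLL1-KO1 and 2.57 and 2.5 TPM in MLL1-KO2 (-2.54 and -1.50). CLDN15, at 6.78 TPM in parental, was called in no line. CLDN8, CLDN17, CLDN18, and CLDN25 were not analysed here.

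Of the other membrane proteins of the tight junction, 8 of 10 listed were in the table and 4 were tested. LSR, the angulin of tricellular junctions, fell in all 6 lines, and its condition means had the same order as those of CLDN1. It was at a mean of 18.7 TPM in parental, 8.89 and 9.54 in SIN3A+SIN3B-DKO1, 5.74 and 5.17 in SIN3A+SIN3B-DKO2, 1.22 and 1.02 TPM in SAP30-KO1, 0.683 and 0.965 TPM in SAP30-KO2, and at most 0.109 in any MLL1-KO library. MARVELD2, which encodes tricellulin, fell in 5 lines from 7.64 TPM, by log2 differences of -1.51 to -2.02, and not in MLL1-KO1, where it held 6.3 and 6.17 TPM. CXADR, the coxsackievirus and adenovirus receptor, rose in 5 lines from 2.22 TPM, up to 9.48 and 9.79 in MLL1-KO2, and held 3.28 and 3.52 in SAP30-KO2 without a call. ILDR2, an angulin as well, rose in SIN3A+SIN3B-DKO2 and MLL1-KO2 from 13.4 TPM, by 0.77 and 0.65. JAM3 and MARVELD3 were not analysed here.

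All 15 listed scaffold and plaque genes were in the table and 12 were tested, of which 2, 2, 2, 2, 6, and 4 were called lower in SAP30-KO1, SAP30-KO2, SIN3A+SIN3B-DKO1, SIN3A+SIN3B-DKO2, MLL1-KO1, and MLL1-KO2, where 7.86%, 8.12%, 8.66%, 7.56%, 16.3%, and 14.9% of all genes were. The higher calls were 1 in SIN3A+SIN3B-DKO2 and 1 in MLL1-KO1, where 6.0% and 6.89% of all genes were called higher. CGN, or cingulin, rose in SIN3A+SIN3B-DKO2 by 1.11 and fell in the MLL1-KO lines by log2 differences of -1.0 and -0.91 from 3.25 TPM. CGNL1, its paralog, fell in all 6 lines from 1.43 TPM. Only in parental did CGNL1 reach the 1 TPM needed for testing, and its calls are in the lower counts above. AMOTL1, an angiomotin, fell in 5 lines from 69.7 TPM and was at -0.20 in MLL1-KO2. CSDA, a Y-box factor that binds ZO-1, rose in MLL1-KO1 by 0.86. The 12 genes had a median log2 difference of -0.52 and -0.26 in MLL1-KO1 and MLL1-KO2.

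All 16 listed genes of the polarity complexes were in the table and 14 were tested. Of these, 4, 4, 5, 4, 8, and 9 were called lower in the lines in the same order and 0 higher. Of all genes, 7.56% to 8.66% were called lower in the first 4 lines and 16.3% and 14.9% in MLL1-KO1 and MLL1-KO2. Those called higher made up 6.0% to 10.2% of all genes in the 6 lines. LLGL2, a basolateral polarity protein, was at 20.8 TPM in parental and fell in all 6 lines, down to 0.235 and 0.074 TPM in MLL1-KO2 (-5.04). PARD6B, which joins PAR3 and atypical PKC, fell from 17.6 TPM in all 6 lines, by log2 differences from -0.91 in SIN3A+SIN3B-DKO2 to -3.20 in MLL1-KO2. PARD6A fell in the SAP30-KO and MLL1-KO lines, by -0.74 in each of the former. DLG1, at 143 TPM, fell in the MLL1-KO lines (-0.66 and -0.70), and SCRIB, at 94.8 TPM, was called in no line. The 14 genes had a median log2 difference of -0.75 and -0.70 in MLL1-KO1 and MLL1-KO2. LIN7A, which is in the lower count of every line, reached the 1 TPM needed for testing only in parental.

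Of 12 listed repressors and activators of epithelial junction genes, 11 were in the table and 7 were tested, of which 3, 1, 2, 1, 2, and 3 were called lower in the lines in the same order. The shares of all genes called lower were 7.86%, 8.12%, 8.66%, 7.56%, 16.3%, and 14.9%, so that lines with 1 of 7, and MLL1-KO1 with 2 of 7, were within about 1 gene of them. The higher calls were 2 in MLL1-KO1 and 1 in MLL1-KO2, where 6.89% and 10.2% of all genes were called higher. ELF3, an epithelial ETS factor, fell in all 6 lines from 5.84 TPM, to at most 0.113 TPM in the MLL1-KO libraries. SNAI2, which encodes the repressor Slug, rose in the MLL1-KO lines from a mean of 41.4 TPM to 96.4 and 94.7 and to 91.6 and 87.9 (1.20 and 1.11), and in the other 4 lines its log2 differences of 0.06 to 0.43 stayed under 1.5-fold. GRHL1 fell in the MLL1-KO lines from 0.953 TPM. ZEB1 was called in no line, and TWIST1 was not analysed here.

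Of the adherens junction genes, all 12 listed were in the table and 10 were tested, of which 5, 5, 3, 3, 2, and 2 were called lower in the lines in the same order. In the MLL1-KO lines 2 of 10 was close to the 16.3% and 14.9% of all genes called lower. In each of these lines 2 of the 10 were called higher, where 6.89% and 10.2% of all genes were. In the other 4 lines 7.56% to 8.66% of all genes were called lower. There 0 of the 10 were called higher, where 6.0% to 7.8% of all genes were. Their median log2 difference was -0.64 and -0.56 in SAP30-KO1 and SAP30-KO2. JUP, which encodes plakoglobin, fell in all 6 lines from 18.6 TPM, with log2 differences of -2.04 to -3.20. CDH1 fell in all 6 lines from 1.16 TPM, with at most 0.282 TPM left. It reached the 1 TPM needed for testing only in parental, so its lower calls, which are in the counts above, are no independent support. CDH3, or P-cadherin, fell in 4 lines from 0.872 TPM and rose in MLL1-KO1, to 3.53 and 3.84 TPM, and in MLL1-KO2. CDH3 was tested only because it reached 1 TPM in the MLL1-KO libraries. Its higher calls there, which are in the counts above, are no independent support. PVRL1, the adhesion protein nectin-1, fell in the SAP30-KO lines from 33.3 TPM (-0.96 and -0.76) and rose in the MLL1-KO lines (0.78 and 1.01). The catenins CTNNA1 and CTNNB1, at 622 and 425 TPM, were called in no line.

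**Figure D5:**
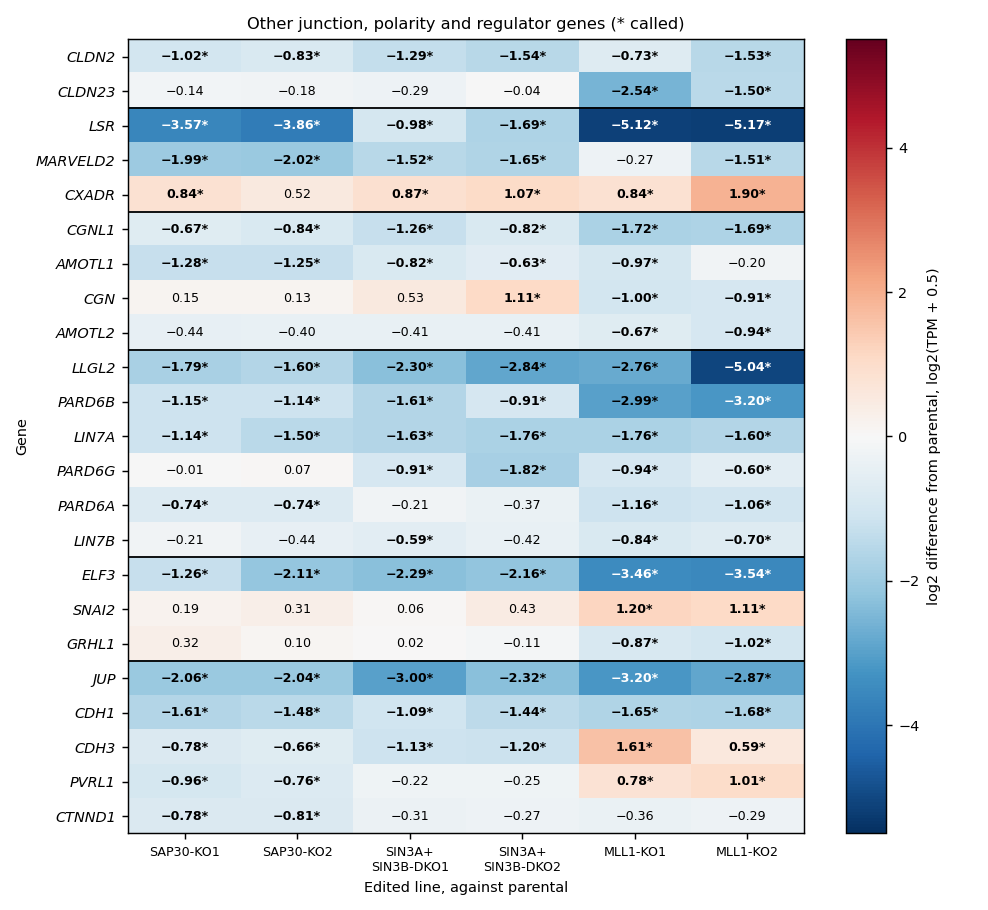
Log2 difference from parental on the log2(TPM + 0.5) scale of other junction, polarity, and regulator genes (vertical, grouped by list) in the 6 edited lines (horizontal), with an asterisk for a called difference. LSR, LLGL2, PARD6B, ELF3, and JUP are blue in every column, and SNAI2 and PVRL1 turn red in the MLL1-KO columns.

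Over the 7 condition means, CLDN7 and OCLN ran together, with a Pearson r of 0.94, whereas F11R followed neither CLDN7 (0.01) nor CLDN4 (-0.25). The tested genes most like CLDN1 were SPIRE2 (r = 0.994), MAGEC2 (0.991), and RAB3IL1 (0.987), and 39 genes had an r over 0.95. For CLDN4 they were HLA-C (0.998), whose reads can be shared with near-identical paralogs, AKR7A2 (0.988), and MIF4GD (0.988). For CLDN7 they were GJA1 (0.994), MDH1 (0.989), and SMN1 (0.988), which has a near-identical copy, SMN2. For OCLN they were CDC6 (0.996), EIF2A (0.995), and MATN3 (0.993), among 114 genes over 0.95. For F11R they were C16orf74 (0.983), RFWD2 (0.983), and CLNS1A (0.983), among 18. With 7 points that share libraries such values describe a likeness and carry no test.

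Luminal epithelial markers were also lower in the edited lines. Of 9 such markers, all in the table and 6 tested, 5, 5, 4, 3, 4, and 5 were called lower in the lines in the same order, and none higher. Of all genes, 7.56% to 8.66% were called lower in the first 4 lines and 16.3% and 14.9% in MLL1-KO1 and MLL1-KO2. Each count includes CDH1, which was tested through its parental level alone. The summed level of the 9 markers was 1620 to 1670 TPM in the parental libraries and 591 to 1100 in the edited ones, most of it from KRT8, KRT18, and KRT19. GATA3, a luminal transcription factor, was not lower in the SAP30-KO lines, at a mean of 16.3 and 15.5 TPM against 11.9 in parental. The receptors that define luminal cells were near 0 in parental already, ESR1 with 2 reads in each library, and PGR was at 0 reads in all 12 edited libraries. Markers of other cell types stayed low, with a sum of at most 4.15 TPM over 4 leukocyte markers and of at most 9.61 TPM over 4 endothelial markers. Of these 8 markers 3 were tested, and some calls went each way: CD14 rose in both SAP30-KO lines and fell in MLL1-KO1, PECAM1 rose in the SAP30-KO and MLL1-KO lines, and KDR fell in MLL1-KO1 and rose in MLL1-KO2. Of the markers high in claudin-low cells, CD44 rose in both MLL1-KO lines (0.73 and 1.08) and VIM in MLL1-KO1 (0.59), and none of the 3 was called in the other 4 lines. Of the 7 markers low in claudin-low cells, which include CLDN3, CLDN4, and CLDN7, 4 were tested and 2, 2, 2, 3, 4, and 4 were called lower in the lines in the same order. The shares of all genes are those given above for the luminal markers. The 4 tested were CLDN4, CLDN7, CDH1, and EPCAM, so this count repeats results already given for CLDN4, CLDN7, and CDH1. EPCAM fell in all 6 lines from 19.2 TPM, by log2 differences from -0.65 in SIN3A+SIN3B-DKO2 to -1.59 in MLL1-KO2. The part of these markers in the differences of the claudin and junction genes was not tested.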

How the data were processed

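RNA was sequenced by the authors from poly(A) libraries (KAPA mRNA HyperPrep) on an Illumina NextSeq instrument. The submitters' processing notes name FastQC 0.11.2, TopHat, featureCounts, and hg19, without roles, and how strands were counted is not given in the sources used here. The deposited table gives 1 value per gene and library without pooling. The authors named the values RPKM, but their sum is the same in all libraries, so the deposited values were used as TPM. The tests had been planned for values corrected for length, and the same test was kept. TPM are shares, so that more RNA of some genes means lower values for the rest.

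The spacing of low values gave whole reads for 18519 of the 18519 genes above 0 (100.0%, within 0.02 reads). The 13540 genes that reached 1 TPM in 2 or more of the 14 libraries were fitted on log2(TPM + 0.5) by limma 3.58.1 (R 4.3.3) with 1 mean for each of the 7 conditions and a variance trend (7 residual and 3.6 prior degrees of freedom). Calls needed a Benjamini-Hochberg adjusted p under 0.05 within a comparison and 1.5-fold. There were 12 comparisons: 6 lines against parental, 3 between genotypes, and 3 between lines of a genotype. Genes and lists were chosen with earlier results of these data known. Named list genes were those called the same way in both lines of a genotype, at most 6 per list by mean absolute difference, and the 3 highest in parental; cell type markers, and the 3 genes most correlated with each called member, were also named. Some genes of the lists are not reported here by name.

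The replicate numbers 1 and 2 come from the labels. Deviations of same-numbered libraries had a mean correlation of 0.01 over 21 pairs of conditions (-0.07 to 0.08), so the numbers did not pair the libraries. Positions are from GENCODE 44 on GRCh37, and promoter sequences are from RefSeq on GRCh38.p14. Counts, intervals, and plots were made in Python 3.11.15 (pandas 2.3.3, scipy 1.17.1, matplotlib 3.10.9). Alternatives were pseudocounts of 0.1 and 1, no filter, quantile and median-ratio scaling, a 2-fold minimum or none, a fit of only the libraries compared, a replicate block, each library left out, limma's voom on the recovered reads, and subtraction of the running median of 51 neighboring genes (12152 genes with a position, 89.7%).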

Additional observations from a re-analysis of the deposited data

Results flagged for a closer look

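The 2 lines of a genotype carry the same targeted genes, and 5 results differed between such lines when the lines were tested directly against each other with limma. In SIN3A+SIN3B-DKO1, CLDN4 was higher than in SIN3A+SIN3B-DKO2 by 2.09 on the log2 scale, with 30.8 and 30.3 against 8.54 and 5.39 TPM, and CLDN1 was higher by 0.86, with 2.86 and 2.47 against 0.998 and 1.51 TPM. In MLL1-KO1, CLDN7 was higher than in MLL1-KO2 by 1.16, with 13.0 and 13.8 against 5.92 and 5.45 TPM, and OCLN was higher by 1.01, with 2.15 and 2.16 against 0.831 and 0.804 TPM. F11R went the other way, with a log2 difference of -0.68 and 10.9 and 11.9 against 17.5 and 19.6 TPM. MLL RNA was 17.4 and 15.8 TPM in MLL1-KO1 against 25.7 and 27.7 TPM in MLL1-KO2, and its part in these differences was not tested.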

How the results depend on the processing

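Against parental, the 18 calls among the 7 genes were recomputed under 25 alternatives, 14 of them leaving out 1 library, and of the 450 values 447 kept their direction and call, 0 turned, and 3 lost the call, all under the 2-fold minimum: OCLN in SAP30-KO1 (-0.82) and SAP30-KO2 (-0.95) and F11R in MLL1-KO1 (-0.93). Of 600 values of the 24 differences without a call, 17 gained one and 10 turned sign, all of them near 0. OCLN in SIN3A+SIN3B-DKO1 was at 0.01 with quantile normalization and with voom on the recovered reads, at 0 with the neighboring genes subtracted, and from -0.04 to 0.01 with 1 library left out. CLDN12 in MLL1-KO2 was at 0.1 with the neighboring genes subtracted. With 1 library left out, CLDN12 ran from -0.04 to 0.06 in MLL1-KO1 and from -0.03 to 0.09 in SAP30-KO2, and OCLN in SIN3A+SIN3B-DKO2 from 0 to 0.12.

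With the 2-fold minimum the genes called among the 7 numbered 3 between MLL1-KO and SAP30-KO, 2 between SAP30-KO and SIN3A+SIN3B-DKO, and 1 between SIN3A+SIN3B-DKO1 and SIN3A+SIN3B-DKO2. Of all 13540 genes tested, 826 lower and 336 higher were then called between MLL1-KO and SAP30-KO. Between SAP30-KO and SIN3A+SIN3B-DKO it was 105 and 183, and between SIN3A+SIN3B-DKO1 and SIN3A+SIN3B-DKO2 43 and 68. With no fold minimum they numbered 7 between MLL1-KO and SIN3A+SIN3B-DKO, 5 each in SAP30-KO1, SAP30-KO2, and SIN3A+SIN3B-DKO2 against parental, and 4 between SIN3A+SIN3B-DKO1 and SIN3A+SIN3B-DKO2. Among the 7, the comparison of SIN3A+SIN3B-DKO1 with SIN3A+SIN3B-DKO2 gave 1 with a pseudocount of 0.1, 0 with only its 4 libraries in the fit, and 1 to 2 with 1 library left out. Without the filter SIN3A+SIN3B-DKO1 against parental gave 2, as CLDN3 was then tested. With the replicate block, which pairs libraries that share only a number, the number of genes called was 5 for MLL1-KO1 and 4 for MLL1-KO2, 3 in each SAP30-KO line, and 1 and 2 in SIN3A+SIN3B-DKO1 and SIN3A+SIN3B-DKO2, and it changed no count in the other comparisons. The cause of these moves was not tested, except that a fold minimum acts on the calls by its construction. A planned quasi-likelihood test on counts was not run, because the deposited values are not counts. A condition left with 1 library is assumed to vary like the others. Depth limits CLDN3 and CLDN11, at 0 to 8 reads, and CLDN1 in the MLL1-KO lines, at 5 to 13 reads.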
